A study of Mus musculus with 24 samples.

Results

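The question asked of these data was how the rostral and the caudal brain of the wild-type mouse embryo differed in their RNA. The comparison used 12 of the 24 libraries of the study, those from embryos with the genotype Tfap2b+/+ at E14.5 (embryonic day), and set 6 libraries of the DMH piece against 6 of the SP piece. SP stands for the secondary prosencephalon, the rostral piece that carries the telencephalon, and the samples of DMH hold diencephalon, midbrain and hindbrain. Each of 6 control embryos, 3 labelled male and 3 labelled female, gave 1 library of each piece, so that a DMH and an SP library of the same sex letter and number came from the same animal. The embryos came from crosses of mice heterozygous for a Tfap2b allele disrupted by a neomycin cassette. The controls carried no disrupted allele, and the labels give no treatment and no other transgene. The other 12 libraries came from Tfap2b-/- embryos and entered only the test of whether the region difference depended on the genotype. PolyA-selected, strand-specific RNA-seq gave between 27.1 and 45.3 M fragments counted on genes per control library, with a median of 31.3 M. A count of 3 then corresponded to 0.0662 to 0.111 CPM (counts per M counts on genes), which is the floor used for genes that were hardly detected.

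By this age the embryonic brain is divided along its length into territories that are each marked by their own transcription factors. The Emx factors mark the dorsal telencephalon, the Dlx factors the ventral part, Tcf7l2 the thalamus and pretectum, the Engrailed factors the midbrain and the first hindbrain segment, and the Hox clusters the rest of the hindbrain and the spinal cord. Cortical neurons are still being born, whereas most neurons of the brainstem have already left the cell cycle and are sending out axons. In bulk tissue, a higher share of a cell type and more RNA of a gene per cell cannot be told apart, and this holds for every level given here.

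Before the comparison, the 12 libraries were examined for those that stood apart. The first principal component of log2 CPM held 75.01% of the variance and separated the 2 pieces completely, and the second, with 9.10%, ordered the embryos in the same way in both pieces, with all 6 libraries labelled male below 0 and all 6 labelled female above. The labels and the transcripts of the sex chromosomes did not match for 1 embryo: both libraries of female control 2 held Y-linked RNA and at most 3 counts of Xist. With the sex letter as a term in the fit, 4923 of 16618 genes differed between the letters at an adjusted p under 0.05. When sex was taken from the transcripts, 9 genes did. These fits took the DMH and SP library of an embryo as separate replicates, with 3 embryos per letter. Their adjusted p therefore does not measure the spread between embryos, and the counts are descriptions. Whether the letter also separated the embryos by something other than sex was not tested. A further 3 libraries stood apart from the rest of their group in marker genes of a territory. The DMH library of female control 1 had 10 counts on all Hox genes together, where the other 5 DMH libraries had 12058 to 20773 and the SP libraries 7 to 15. The DMH library of male control 3 was the highest for genes of the ventral telencephalon, with Lhx6 at 34.7 CPM against 3.96 to 16.5 in the other 5, and the SP library of male control 1 held the most RNA of diencephalic genes, with Tcf7l2 at 150.2 CPM against 14.8 to 54.6.

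**Figure D1:**
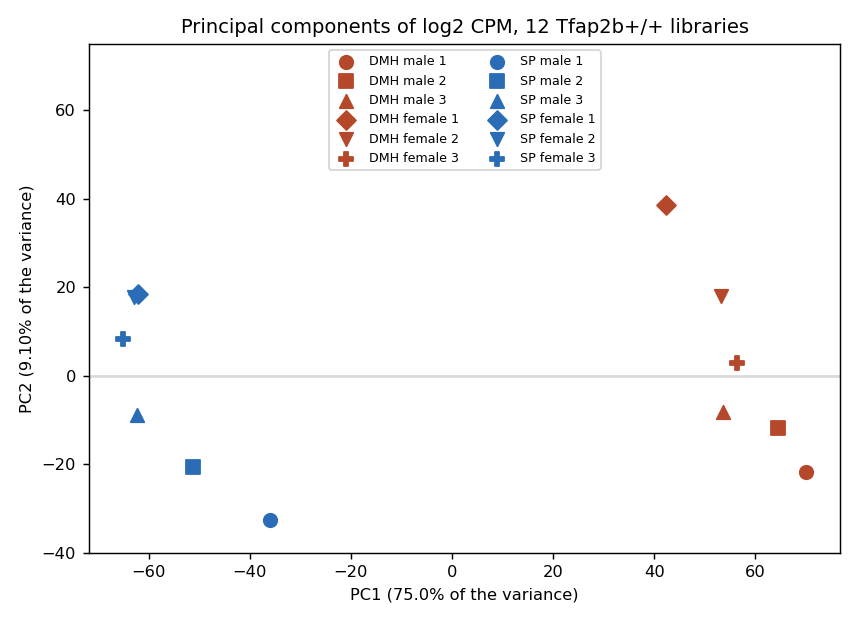
The plot places the 12 control libraries on the first 2 principal components of log2 CPM, with DMH in red, SP in blue and 1 marker shape per embryo. DMH and SP lie on opposite sides of the first component (75.01% of the variance), and within each piece the embryos follow the same order along the second (9.10%).

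Of 16618 genes that passed the filter on low counts, 1635 (9.84%) were higher in the DMH and 833 (5.01%) higher in the SP at an adjusted p under 0.05 and a log2 fold change over 1 in size (edgeR quasi-likelihood test with sex letter as covariate, Benjamini-Hochberg adjustment). Such genes are named as higher in a piece throughout, and 14.9% of all genes tested were called in either direction. Each count of list members below stands beside these shares as a description, since the lists were chosen with earlier results of these data known. A gene with at most 3 counts in every library of 1 piece could pass the filter through the other alone, which set its direction. At the adjusted p alone 5638 (33.9%) were higher in the DMH and 5746 (34.6%) in the SP. The median log2 fold change over all tested genes was -0.0042, on counts that TMM scaling centres. Among the called genes, 1380 of 1635 had every DMH library above every SP library and 774 of 833 had the reverse, where over all tested genes 20.8% and 20.2% did not overlap in these directions. The largest differences were found on the DMH side, with 174 genes over a log2 fold change of 3 against 42 in the SP. Without the 3 libraries named above, 1968 genes were higher in the DMH and 931 in the SP of 16743 tested. Of the genes with at least 10 CPM in the higher piece and no overlap, the 10 with the largest fitted folds in the DMH included Pou4f2, Slc6a5, En1, En2, Lbx1, Pax7, Prrxl1, Pax2 and Barhl1, all transcription factors except the glycine transporter Slc6a5. In the SP they included Emx1, Dct, Tfap2c, Slc17a7, Gm29260, Tiam2, Eomes, 9130024F11Rik and Fezf2, with 4 transcription factors, a glutamate transporter, a pigment enzyme, the Rac activator Tiam2 (190.2 to 318 CPM in the SP, 4.84 to 10.1 in the DMH) and 2 genes without a given function. Of long intergenic RNAs 126 of 471 (26.8%) were called, of protein-coding genes 2108 of 14301 (14.7%) and of processed pseudogenes 20 of 559 (3.58%).

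Levels per kilobase of exon (CPM divided by exon length, the only scale on which different genes were compared) showed which called genes were the most abundant. The 5 highest in the DMH were the mitochondrial ribosomal RNA mt-Rnr1 (678), the tubulin Tubb2a (460.4), the growth cone protein Gap43 (436), the intermediate filament Ina (389.9) and the axonal microtubule protein Mapt (235). In the SP they were the neuronal factor Neurod6 (262), the linker histone H1f0 (237), the cyclin Ccnd2 (213), the nucleosome-binding protein Hmgn2 (175) and the lamin Lmnb1 (169.8). Apart from Neurod6 and Ccnd2, at 18.4- and 4.90-fold, these abundant genes differed by between 2.005- and 2.48-fold.

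Genes of the pallium, the dorsal telencephalon that forms the cortex, were higher in the SP for 16 of 18 tested members and in the DMH for none (median log2 fold change -2.36, against -0.0042 for all genes, of which 5.01% were higher in the SP). Emx1, a homeodomain factor of cortical progenitors (chromosome 6, 85187438 to 85204462, plus strand, GRCm38), was measured at 0.151 to 0.724 CPM (median 0.313) in the DMH and 31.2 to 56.2 CPM (median 51.4) in the SP. Every SP library lay far above every DMH library, with a 123-fold difference (log2 fold change -6.95, SE 0.23, edgeR adjusted p = 1.84e-10). Eomes, the T-box factor of cortical intermediate progenitors, stood at 5.91 to 11.3 CPM (median 6.75) against 204 to 289 CPM (median 265), at log2 fold change -5.11 (edgeR adjusted p = 1.84e-10). Tbr1, its relative in deep-layer neurons, was 19.9-fold higher in the SP, and Fezf2, which specifies cortical projection neurons, 25.5-fold. Neurod6, a factor of cortical excitatory neurons, ranged from 452 to 719.7 CPM in the SP and reached 23.4 to 34.8 CPM in the DMH. The Nfi factors, which drive the late programme of cortical radial glia, showed some of the smallest errors, with Nfix at log2 fold change -2.52 (SE 0.05, edgeR adjusted p = 3.48e-14). The 2 members not called were Cux2 (log2 fold change -0.09) and the netrin receptor Unc5d (-0.46).

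Of 10 genes expressed widely in the telencephalon, 5 were higher in the SP, among them Sp8, Nr2e1 and Rprm. Nr2e1, a nuclear receptor of neural stem cells, was measured at 6.56 to 20.1 CPM (median 14.4) in the DMH and 81.1 to 124 CPM (median 111) in the SP (log2 fold change -2.93, SE 0.23, edgeR adjusted p = 7.59e-07), and the groups did not overlap. The 5 not called, Six3, Otx1, Lmo3, Fgf15 and Hes5, had log2 fold changes between -0.78 and 0.45. They are also used in the diencephalon or midbrain, and whether this bears on their values was not tested.

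Subpallial genes, which mark the ventral telencephalon where cortical and striatal inhibitory neurons arise, were less uniform: 10 of 24 were higher in the SP and 5 higher in the DMH, against 5.01% and 9.84% of all genes. Dlx2 was measured at 6.45 to 47.0 CPM (median 19.97) in the DMH and 84.7 to 166 CPM (median 127) in the SP (log2 fold change -2.49, edgeR adjusted p = 5.16e-04), Lhx6, a factor of migrating interneurons, at 3.96 to 34.7 CPM (median 10.7) and 65.4 to 102 CPM (median 89.6), at log2 fold change -2.62 (edgeR adjusted p = 7.71e-04). For both, the DMH of male control 3 was the highest of its group and the SP of the same embryo the lowest, at 47.0 against 84.7 CPM for Dlx2 and 34.7 against 65.4 CPM for Lhx6. The 5 higher in the DMH were Gsx1, Ebf1, the dopamine receptor Drd2, the enkephalin precursor Penk and Zfhx3. All have expression outside the telencephalon, and whether this bears on their direction was not tested. Nkx2-1, a factor shared by the ventral telencephalon and the hypothalamus, was not called (8.87 to 31.2 CPM with a median of 19.6 against 13.2 to 47.9 CPM with a median of 35.2, edgeR adjusted p = 0.0965). With embryos labelled male alone, 2 subpallial genes were higher in the SP in place of 10.

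**Figure D2:**
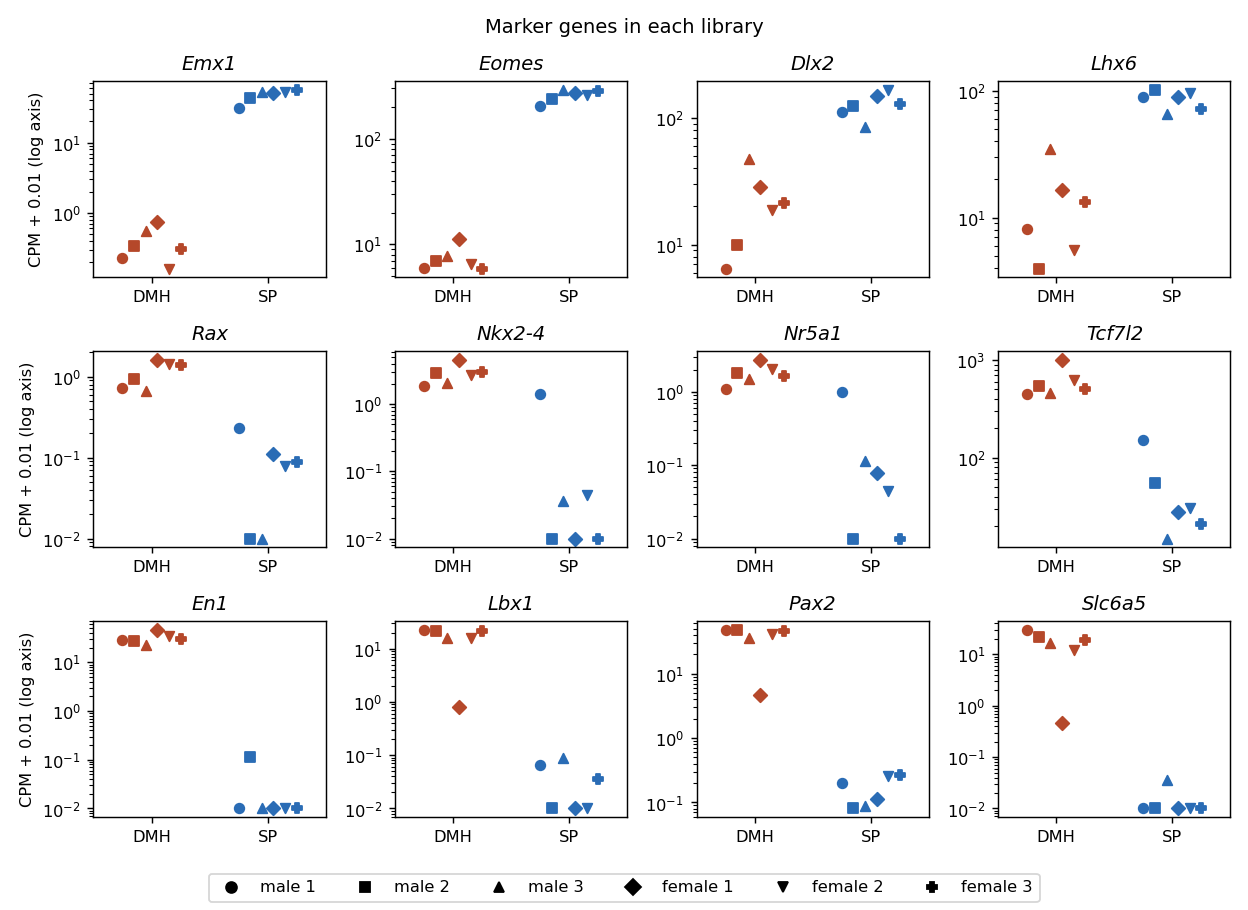
Each panel shows 1 gene in the 12 libraries as CPM plus 0.01 on a log axis, DMH in red and SP in blue, with 1 marker shape per embryo. The DMH of male control 3 is highest for Dlx2 and Lhx6, the SP of male control 1 is highest for Rax, Nkx2-4, Nr5a1 and Tcf7l2, and the DMH of female control 1 is lowest for Lbx1, Pax2 and Slc6a5.

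The name secondary prosencephalon includes the hypothalamus, and most genes listed as its markers were higher in the other piece, the DMH. Of 22 hypothalamic genes listed 19 were tested, 16 were higher in the DMH and 1, Vax1, higher in the SP (median log2 fold change 2.41). Rax, the homeobox factor that starts hypothalamic development, was measured at 0.646 to 1.601 CPM (median 1.15) in the DMH and 0 to 0.221 CPM (median 0.0737) in the SP (log2 fold change 3.71, edgeR adjusted p = 7.49e-07). Nkx2-4 reached 1.87 to 4.57 CPM (median 2.83) against 0 to 1.41 CPM (median 0.0129) and Nr5a1, which marks the ventromedial hypothalamus, 1.08 to 2.71 CPM (median 1.71) against 0 to 0.994 CPM (median 0.0513). In both cases 5 of 6 SP libraries were at or near 0 and the SP of male control 1, at 1.41 and 0.994 CPM, came close to the lowest DMH library. Otp, needed for neuroendocrine neurons, stood at 46.4 to 76.0 CPM (median 57.5) against 3.61 to 17.4 CPM (median 7), at log2 fold change 2.67 (edgeR adjusted p = 9.55e-05), and Hmx2, Hmx3, Six6 and Sim1 were 5.30-, 4.08-, 6.07- and 3.15-fold higher in the DMH. Of the peptide genes of the hypothalamus, Pmch (melanin-concentrating hormone) was 6.97-fold, Trh 2.89-fold and Pomc 2.30-fold higher in the DMH, at no more than 4.31 CPM in any library. Some listed genes, such as Foxb1, Sox14 and Barhl1, are also used in the midbrain or cerebellum. The count of 16 was the same without the SP of male control 1 and without the 3 libraries named above, 13 with DESeq2, which gave no adjusted p for 3 of the 19, and 8 of 19 with embryos labelled male alone. Vax1 lay just past the threshold (log2 fold change -1.02) and lost its call when any one of 7 libraries was left out. Where the cut between the pieces ran was not measured.

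Of 18 diencephalic genes 15 were higher in the DMH and none in the SP (median log2 fold change 3.32), and of 20 midbrain genes all 20 (median 6.03, or 4.95 with the 5 genes at the floor in the SP set to their bound), where 9.84% of all tested genes were higher in the DMH. For these 5 (En1, En2, Pitx3, Foxa2 and Slc6a3) the filter had set the direction. Tcf7l2, a Wnt-pathway factor of thalamus and pretectum, was measured at 449 to 1004 CPM (median 523) in the DMH and 14.8 to 150.2 CPM (median 29.3) in the SP (log2 fold change 3.72, SE 0.63, edgeR adjusted p = 4.85e-04), and Gbx2 and Lhx9, which mark thalamic neurons, were 7.62- and 4.52-fold higher in the DMH. Pou4f1, the homeodomain factor of the habenula, tectum and sensory ganglia, stood at 79.6 to 125 CPM (median 90.4) against 0.413 to 2.43 CPM (median 0.729). The Iroquois genes, homeobox factors of the caudal forebrain and beyond, were higher in the DMH without exception among those listed, with Irx1, Irx2, Irx3 and Irx5 between 24.7- and 122-fold. The diencephalic genes not called were Prox1, Cadm1 and Nr4a2, with log2 fold changes of 0.66, 0.20 and 0.72.

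En1 (chromosome 1, 120602418 to 120607992, plus strand) and En2, the Engrailed factors of the midbrain and rostral hindbrain, had among the sharpest boundaries. En1 was measured at 22.8 to 46.4 CPM (median 29.9) in the DMH, and in the SP 5 of 6 libraries were at 0 and 1 at 0.106 CPM, at most 3 counts, so that the DMH was at least 349.6-fold higher. En2 was at least 569-fold higher (38.4 to 77.7 CPM with a median of 47.9), and Pax7, which marks the dorsal midbrain, stood at 31.9 to 76.8 CPM (median 45.9) against 0.0776 to 0.359 CPM (median 0.155). Pou4f2, a factor of tectal and retinal neurons, had a mean of 34.0 CPM (SD 6.38, n = 6) in the DMH and no count in any SP library, at least 374-fold higher. In all of En1, En2, Pax7 and Otx2 the DMH of female control 1 was the highest library, for Otx2 at 137 CPM against 64.5 to 90.4. Genes of the midbrain dopamine neurons were low but on the DMH side, with Th at 7.68 to 14.1 CPM (median 8.88) against 0.748 to 2.44 CPM (median 1.96) and Pitx3 at 0.538 to 2.59 CPM (median 1.17), with 5 of 6 SP libraries at 0.

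At the isthmus, the organiser between midbrain and hindbrain, and in the cerebellar anlage 13 of 16 tested genes were higher in the DMH and none in the SP (median log2 fold change 4.66, or 4.18 with Wnt1 and Atoh1 at their bound), among them the signal Wnt1, the rhombic lip factor Atoh1 (at least 49.5-fold), Pax5 (68.5-fold) and Lhx1 (14.3-fold). Without the DMH of female control 1, 13 of 17 tested were higher in the DMH and 1, Fgf8, higher in the SP (log2 fold change -1.08, edgeR adjusted p = 0.0208). Fgf8, the isthmic signal, did not pass the filter of the 12-library fit, at 0.09 to 0.686 CPM in the DMH and 0.232 to 0.712 in the SP, and Fgf17, which is also made by the rostral telencephalon, was not called (1.93 against 3.08 CPM in the median).

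A list of 24 hindbrain genes, chosen mostly outside the Hox clusters, had 19 tested members, and 18 of these were higher in the DMH. Without the DMH of female control 1 they were 22 of 23 tested, in a fit where 10.6% of 16941 genes were. Of the 24, 14 had at most 3 counts in each SP library, so that those tested had passed the filter through the DMH, and these counts are largely set by the filter. Slc6a5, the glycine transporter of inhibitory hindbrain neurons, was measured at 0.457 to 29.9 CPM (median 18.03) in the DMH (at least 184-fold higher), and Lbx1, a factor of dorsal hindbrain and spinal neurons, at 0.8 to 22.5 CPM (median 18.9) (at least 181-fold). For both the lowest DMH library was female control 1, at 0.457 and 0.8 CPM, still above every SP library. Pax2 had the same outlier, at 4.69 CPM against 36.2 to 47.6 in the others and at most 0.259 in the SP (log2 fold change 7.83, edgeR adjusted p = 5.47e-06). In that library the serotonin neuron factor Fev was at 1.94 CPM against 2.06 to 2.87, and Dbh, the enzyme that makes noradrenaline, at 1.14 against 3.23 to 3.35.

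Hox genes, which give hindbrain and spinal segments their identity, were found in the DMH alone beyond the 7 to 15 counts given above. Of 39 genes in the 4 clusters none passed the filter of the 12-library fit, which asks for counts in at least 6 libraries, since 5 DMH libraries held them. Without the DMH of female control 1, 17 Hox genes passed it. In the SP 37 of the 39 had at most 3 counts in every library, so the genes that passed did so through the DMH, which set their direction, and their levels are given as a description. Hoxb5 was measured at 63.9 to 80.2 CPM (median 76.6) in the 5 other DMH libraries, at 0.0381 CPM in female control 1 and at 0 in all 6 SP libraries. Hoxb8 reached 69.3 to 114 CPM in 4 DMH libraries, 9.98 in female control 2 and 0 in female control 1.

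Along the clusters the DMH libraries parted in a second way. In genes of paralog groups 1 to 5, the DMH of female control 2 held a median of 101% of the mean of the other 4 Hox-positive libraries (67.4% to 119%, 11 genes). In groups 6 to 9 it held a median of 7.87% (0% to 53.8%, 8 genes). Hoxb3 and Hoxb9, chosen as examples after their values were seen, differed in this. Hoxb3 was at 66.6, 67.4, 59.1 and 72.7 CPM in males 1 to 3 and female 3, and at 67.0 in female 2. Hoxb9 was at 35.5, 17.7, 7.43 and 19.1 CPM in the same 4 and at 0 in female 2. The coefficient of variation over the 5 libraries was 7.29% for Hoxb3 and 84.2% for Hoxb9, within a range of 6.49% (Hoxa4) to 152% (Hoxc8) over the 19 Hox genes with a mean over 1 CPM in these 5 libraries. Caudal Hox genes are known from the caudal hindbrain and spinal cord, and how far caudally each piece reached was not tested.

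**Figure D3:**
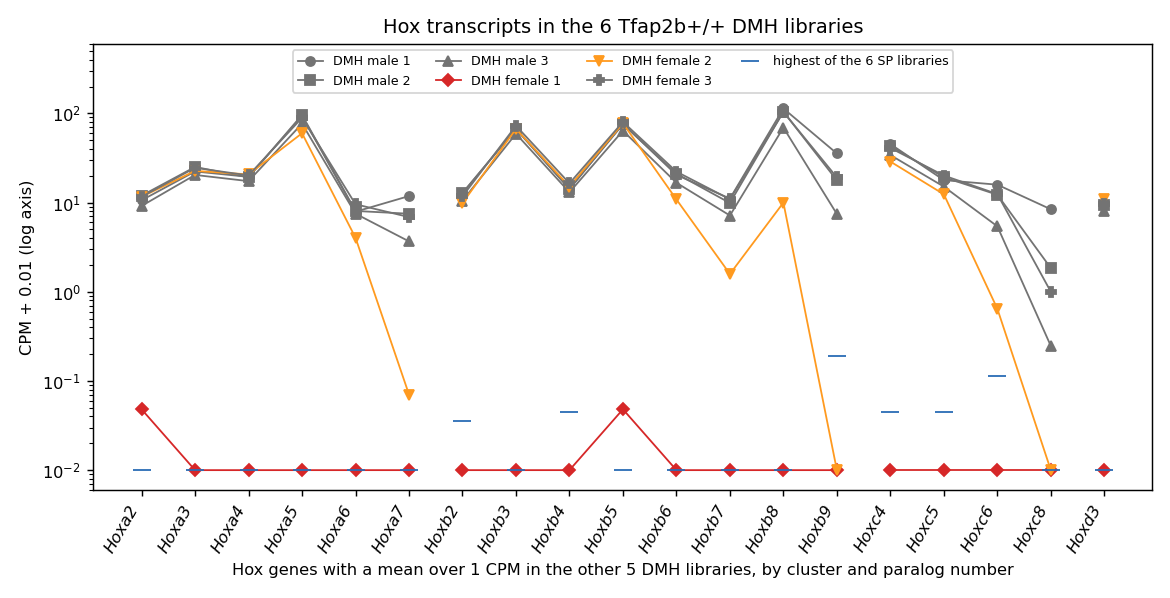
The plot gives CPM plus 0.01 on a log axis for the 19 Hox genes with a mean over 1 CPM in 5 DMH libraries, ordered by cluster and paralog number, with 1 line per DMH library and a blue dash for the highest SP library. Female control 1 (red) lies at the level of the SP libraries throughout, and female control 2 (orange) falls from the level of the others at Hoxb5 (77.4 CPM) to 9.98 CPM at Hoxb8 and 0 at Hoxb9.

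The windows around the start sites of Emx1, En1 and Tfap2b are shown because these genes stand for the SP side, the midbrain boundary and the gene the study deleted. They are the 300 bases from 250 before to 50 after the start in the RefSeq table (GRCm38.p6), all on the plus strand, at chr6:85187681-85187980, chr1:120602237-120602536 and chr1:19211804-19212103. Capitals mark CpG dinucleotides, the sites of DNA methylation that cluster in CpG islands.
Emx1: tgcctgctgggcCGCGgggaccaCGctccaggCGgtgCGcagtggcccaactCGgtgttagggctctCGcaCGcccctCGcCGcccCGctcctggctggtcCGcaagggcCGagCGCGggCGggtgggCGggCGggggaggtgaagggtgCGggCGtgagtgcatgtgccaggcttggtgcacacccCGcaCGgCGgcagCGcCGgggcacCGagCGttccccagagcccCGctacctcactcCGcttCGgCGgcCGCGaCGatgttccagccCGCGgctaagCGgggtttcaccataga
En1: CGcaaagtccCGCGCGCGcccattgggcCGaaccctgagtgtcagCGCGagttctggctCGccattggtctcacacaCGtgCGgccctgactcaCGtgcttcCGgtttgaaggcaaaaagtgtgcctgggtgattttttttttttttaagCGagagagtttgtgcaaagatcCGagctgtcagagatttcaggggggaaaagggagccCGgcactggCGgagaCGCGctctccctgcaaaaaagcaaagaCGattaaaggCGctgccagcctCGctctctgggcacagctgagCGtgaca
Tfap2b: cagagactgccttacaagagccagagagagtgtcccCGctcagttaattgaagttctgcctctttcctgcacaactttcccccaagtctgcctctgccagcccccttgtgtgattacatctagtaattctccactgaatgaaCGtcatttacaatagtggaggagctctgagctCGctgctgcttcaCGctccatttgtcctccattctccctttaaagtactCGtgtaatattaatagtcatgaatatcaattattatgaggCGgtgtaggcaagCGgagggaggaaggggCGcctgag
They hold 37, 23 and 8 CpG and 74.0, 57.0 and 48.3% G and C. Over the 11857 tested genes with such a window, averaged where a gene has several, the median was 20 CpG, with a median of 15 for the 1144 genes higher in the DMH and 20.6 for the 586 higher in the SP. The E-box CAGCTG, read on either strand, stood in the En1 window and in at least 1 window of 18.3% of the 11857 genes. This held for 23.9% of the genes higher in the DMH and 85 of the 586 higher in the SP. The E2F motif TTTCGCGC, which regulates cell cycle genes, was found for 13 genes higher in the SP (2.22%). It was found for 2 genes higher in the DMH (0.175%) and for 0.683% of all genes with a window. These shares are descriptions of letters in the windows and were not tested.

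Tfap2b, the AP-2 factor the study deleted, was measured at 281 to 441 CPM (median 395) in the DMH and 3.56 to 4.24 CPM (median 4.002) in the SP of the controls (log2 fold change 6.58, SE 0.12, edgeR adjusted p = 1.42e-13), 95.9-fold higher in the DMH with no overlap. Its family split between the pieces. Tfap2a was 44.8-fold and Tfap2d 3.19-fold higher in the DMH, Tfap2c was 85.6-fold higher in the SP (0.272 to 0.948 CPM with a median of 0.394 in the DMH, 35.5 to 52.4 CPM with a median of 48.4 in the SP, edgeR adjusted p = 1.13e-10), and Tfap2e was not called. Per kilobase, Tfap2b (59.9) lay above Tfap2a (7.82) and Tfap2d (15.7) in the DMH, and Tfap2c (12.7) was the highest of the family in the SP. Of 43 pairs of closely related genes examined for such splits, 26 had both members higher in the same piece and 4 had one in each. These were Tcf7l1 (SP) and Tcf7l2 (DMH), Lhx2 (SP, 3.17-fold) and Lhx9 (DMH, 4.52-fold), Gsx2 (SP, 6.89-fold) and Gsx1 (DMH, 2.86-fold), and the vesicular glutamate transporters. For Tcf7l1 the log2 fold change of -1.01 lay just past the threshold of 1, and the call was lost without any one of 4 libraries.

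**Figure D4:**
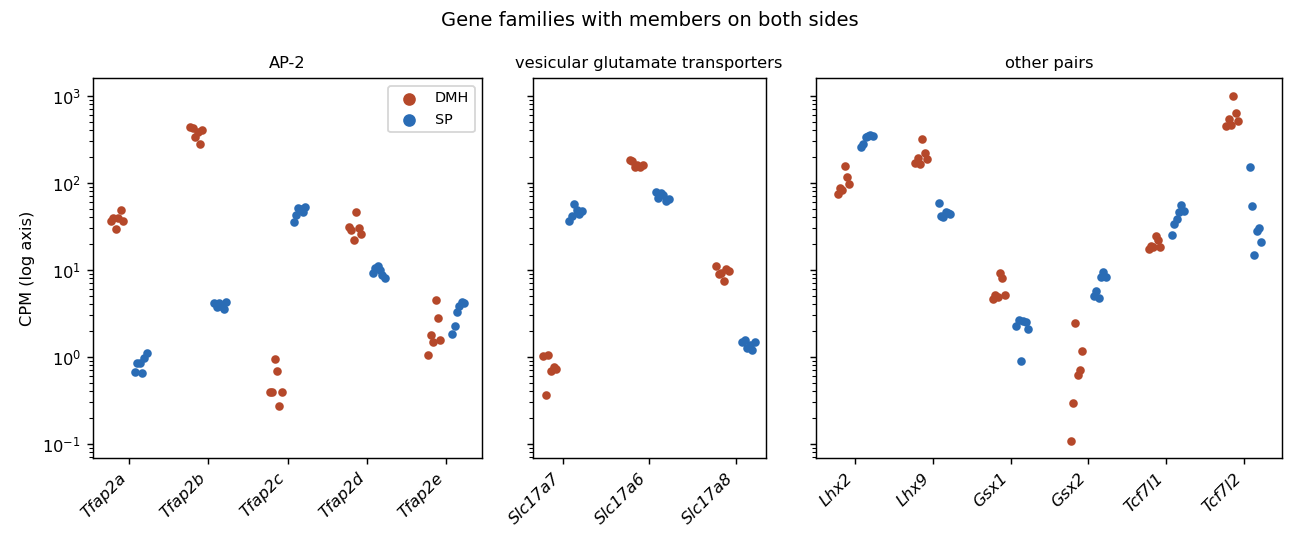
Points give the CPM on a log axis of each control library, DMH in red and SP in blue, for the AP-2 family, the vesicular glutamate transporters and 3 further pairs. Tfap2a, Tfap2b, Tfap2d, Slc17a6, Slc17a8, Lhx9, Gsx1 and Tcf7l2 are higher in the DMH, and Tfap2c, Slc17a7, Lhx2, Gsx2 and Tcf7l1 in the SP.

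Vesicular glutamate transporters load the excitatory transmitter into vesicles, and the 3 family members differed between the pieces. Slc17a7 (VGLUT1) was measured at 0.36 to 1.06 CPM (median 0.738) in the DMH and 36.8 to 57.5 CPM (median 45.5) in the SP, 58.3-fold higher in the SP (log2 fold change -5.87, edgeR adjusted p = 3.48e-11). Slc17a6 (VGLUT2) was higher in the DMH, at 152 to 185 CPM (median 159.8) against 61.2 to 78.1 CPM (median 70.1), at log2 fold change 1.24 (edgeR adjusted p = 1.49e-10), and so was Slc17a8 (VGLUT3, 6.81-fold). Per kilobase Slc17a6 exceeded Slc17a7 in the SP too, 12.99 against 8.49. Of 8 genes of GABA and glycine use 5 were higher in the DMH and none in the SP (median log2 fold change 1.08). Gad2, a GABA-synthesising enzyme, was not called (107 to 145 CPM with a median of 118 against 84.5 to 143 CPM with a median of 117), its relative Gad1 was 2.06-fold higher in the DMH, and the vesicular transporter Slc32a1 had a log2 fold change of 0.65, below the threshold. Of 15 tested genes of monoamine and acetylcholine neurons, 12 were higher in the DMH and none in the SP, where 9.84% of all genes were higher in the DMH. For 4 of the 12 (Dbh, Slc6a2, Slc6a3 and Fev, at the floor in the SP) the filter had set the direction. Among the others were Tph2, the enzyme of serotonin synthesis, at 22.5-fold, the choline transporter Slc5a7 at 8.99-fold and the acetylcholine-degrading enzyme Ache at 7.01-fold.

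Among 31 tested subunits of glutamate, GABA and glycine receptors, 15 were higher in the DMH and 1, the GABA-A subunit Gabrd, in the SP. Gabrd did not exceed 1.06 CPM in the SP. It had at most 3 counts in every DMH library, so that it passed the filter through the SP, which set its direction. Glra1, the adult-type glycine receptor subunit, was 84.5-fold higher in the DMH (0.381 to 4.11 CPM with a median of 2.43 against 0 to 0.11 CPM with a median of 0), whereas the embryonic subunit Glra2 was not called (0.58). AMPA receptor subunits Gria1, Gria2 and Gria3 had log2 fold changes of 0.03, 0.07 and 0.15, and Gria4 was 2.29-fold higher in the DMH. The NMDA subunits Grin1, Grin2d and Grin3a were 2.86-, 6.56- and 4.17-fold higher in the DMH, and Grin2b was not called (121 to 364 CPM with a median of 215 against 85.8 to 338 CPM with a median of 145). Neuropeptide genes followed with 14 of 21 tested higher in the DMH, among them Cartpt (22.7-fold), Penk (5.79-fold) and Adcyap1 (4.21-fold). Nts, the neurotensin gene, was the one higher in the SP (3.65-fold), and Npy and Sst were not called.

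Signalling genes divided between the pieces. Of 27 tested genes of the Wnt, FGF, Hedgehog and BMP pathways 6 were higher in the DMH and 8 in the SP, against 9.84% and 5.01% of all genes. In the SP were the ligands Wnt7a (2.53-fold), Wnt7b (3.03-fold), Wnt3a and Wnt8b, the Wnt enhancers Rspo1 and Rspo3, and Gli2 and Gli3, the effectors of Hedgehog signalling, at 3.16- and 2.98-fold. In the DMH were Wnt1, Wnt3, Wnt4, the ligand Shh (6.78 to 11.4 CPM with a median of 8.95 against 1.44 to 4.58 CPM with a median of 3.83), Gdf7 and Gdf10. Ptch1, a target and receptor of Shh, had a log2 fold change of 0.83 with no overlap and did not pass the fold threshold. Of 17 tested retinoic acid genes 7 were higher in the DMH, with the degrading enzyme Cyp26b1 at 87.5 to 165 CPM (median 128) against 10.04 to 16.1 CPM (median 13.2) and the synthesising enzyme Aldh1a1 at 14.4-fold, and Aldh1a3, another synthesising enzyme, was 4.69-fold higher in the SP. The axon guidance list gave 7 in the DMH and 8 in the SP of 36, against the same shares. Netrin 1 (Ntn1, 2.84-fold), its receptor Unc5c (5.66-fold), the commissural receptor Robo3 (6.37-fold) and Epha8 were higher in the DMH, and Epha3 (3.65-fold), Epha4, Epha5, Efnb1, Efnb2 (4.25-fold), Plxnd1, Sema5a and Cntn2 in the SP.

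Cell cycle genes were uniform in direction: all 18 were higher in the SP, by 2.39- to 3.80-fold (median log2 fold change -1.77), under each of the 25 alternative settings examined. Mki67 was measured at 95.3 to 144 CPM (median 119) in the DMH and 349.5 to 518 CPM (median 411) in the SP (log2 fold change -1.79, edgeR adjusted p = 2.30e-08), the topoisomerase Top2a at 109 to 187 CPM (median 152) and 461 to 618 CPM (median 522), and the replication helicase subunit Mcm2 at 32.5 to 66.5 CPM (median 49.5) and 95.4 to 199 CPM (median 154). Summed over the 18 genes, the DMH libraries held 616 to 1019 CPM and the SP libraries 2196 to 3093 CPM. Within the SP the sum was 2196 to 2383 CPM in embryos labelled male and 2889 to 3093 in those labelled female. General progenitor genes moved less: of 18 the factors Sox1, Sox3 and Pax6 were higher in the SP and the endothelin receptor Ednrb in the DMH, and Sox2, Nes and Vim had log2 fold changes of -0.65, -0.79 and -0.45.

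Of 18 neuronal genes 7 were higher in the DMH and none in the SP. They were chiefly cytoskeletal genes of long axons: the neurofilaments Nefl (254 to 545 CPM with a median of 437 against 30.2 to 66.6 CPM with a median of 43.9, log2 fold change 3.23, edgeR adjusted p = 1.54e-07), Nefm (5.57-fold) and Nefh (15.7-fold), Ina, Prph and Gap43, with the non-coding RNA Snhg11 as the other. All 18 had fitted log2 fold changes above 0 (median 0.91). In 14 of them every DMH library lay above every SP library, against 20.8% of all tested genes. The list summed to 11700 to 12780 CPM in the DMH against 7083 to 9531 in the SP. Among the members not called were Dcx at a log2 fold change of 0.12, Elavl3 at 0.15, Rbfox3 at 0.01 and Tubb3 at 0.39. Prph is also a gene of peripheral neurons and varied from 5.30 to 68.7 CPM among the DMH libraries. Glial genes were higher in the DMH for 8 of 14 tested (9.84% of all genes), including Olig1 (3.80-fold) and Aldh1l1 (2.49-fold), and Nfia in the SP (3.78-fold). In 5 of the 14 every DMH library lay above every SP library, where 20.8% of all tested genes did. Olig2 and Pdgfra were not called, and the sums of the list, 901 to 1379 CPM in the DMH and 926 to 1429 in the SP, overlapped.

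**Figure D5:**
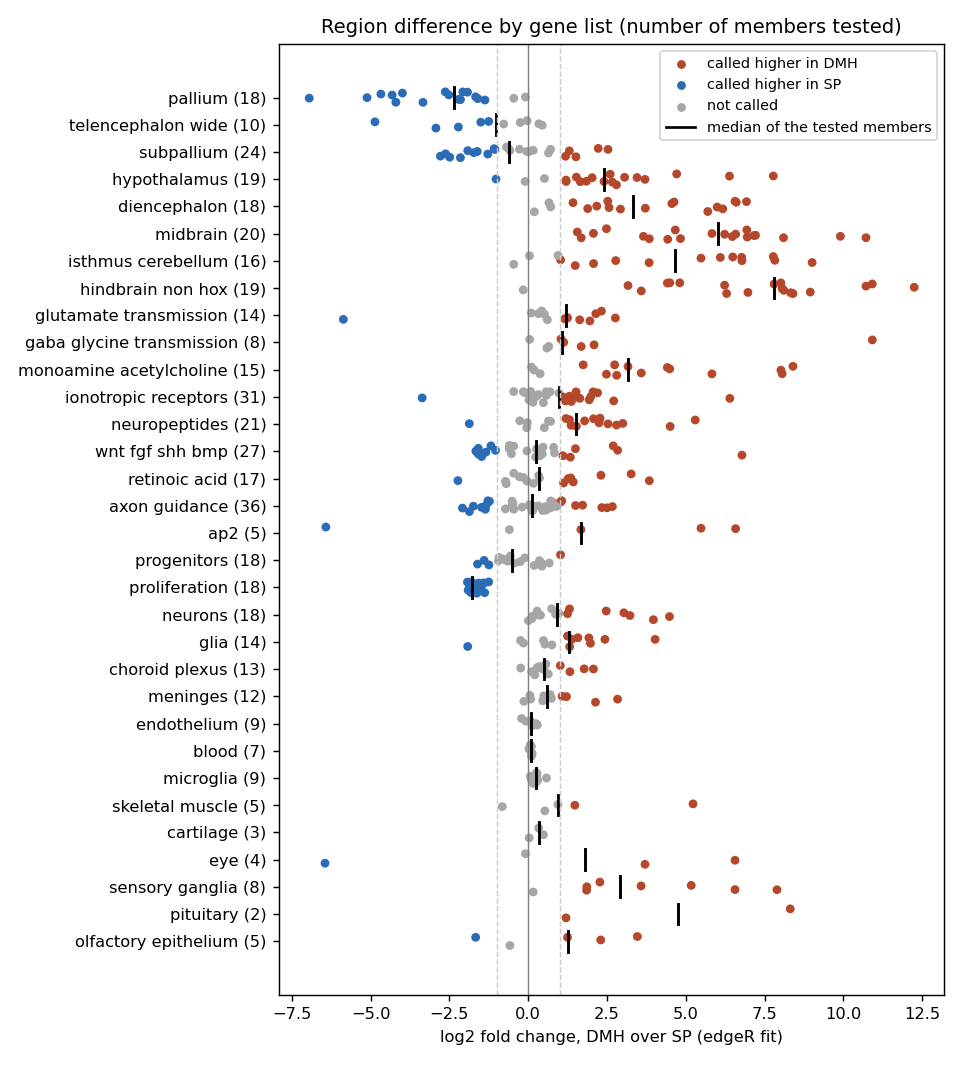
Each point is 1 tested gene, placed by its log2 fold change of DMH over SP and coloured by its call, with a black bar at the median of each list. Pallial and cell cycle genes lie on the SP side, midbrain, hindbrain and most hypothalamic genes on the DMH side, and endothelial, blood and microglial genes near 0.

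Markers of other tissues that a dissected piece can carry were compared as well. None of 9 endothelial, 7 red blood cell and 9 microglial genes tested was called. Blood genes summed to 527 to 985 CPM in the DMH and 562 to 739.6 in the SP, and endothelial genes to 325 to 351 and 281 to 321 CPM. In the microglial list 2 of 9 genes had every DMH library above every SP library, near the share of 20.8% over all tested genes. The sum of the list was higher in every DMH library than in any SP library, at 74.3 to 86.8 CPM in the DMH and 60.3 to 68.4 in the SP. Of 12 meningeal genes 4 were higher in the DMH (Col1a1, Col1a2, Ptgds and Slc6a20a) and the list summed to 875 to 1305 CPM against 498 to 684. Ttr, the main product of the choroid plexus, was not called (323 to 609 CPM with a median of 419.8 against 252 to 460 CPM with a median of 407). Genes of sensory ganglia were higher in the DMH for 7 of 8. Scn10a, a sodium channel of pain-sensing neurons, ranged from 0.0762 to 6.99 CPM over the DMH libraries, with male control 1, male control 3 and female control 3 high and female control 1 lowest. The SP range, 0.373 to 0.838 CPM, overlapped it. The call of Scn10a (edgeR adjusted p = 0.0342) was lost with the embryo as a block (edgeR adjusted p = 0.0589) and without any one of 8 libraries. The genes Prph, Nefh and Prrxl1, which ganglia also make, were measured in the same libraries, and the part of ganglia in their values was not tested. Of 4 tested genes of the eye and its pigment layer 2 were higher in the DMH and 1 in the SP. The latter, the pigment gene Dct, was 87.3-fold higher in the SP (9.61 to 15.96 CPM with a median of 14.6), while Tyr, another pigment gene, had at most 3 counts in every library, and of the pituitary hormones Cga, Gh and Tshb none exceeded 3 counts in any library.

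Opposite-strand RNAs are non-coding transcripts named after the gene they face, and the strand-specific counts allowed both to be measured. Of 66 tested with their partner, 12 were called, 8 higher in the DMH and 4 in the SP, where 18.4% of all 397 tested antisense genes and 14.9% of all genes were called, and in 8 of the 12 the partner was called in the same piece. Dlx6os1 was higher in the SP with Dlx6, and Otx2os1, Lhx1os, Irx3os and Evx1os higher in the DMH with Otx2, Lhx1, Irx3 and Evx1. Zfhx2os was the exception in direction, at a mean of 2.71 CPM in the SP and 0.738 in the DMH, while Zfhx2 stood at 61.3 and 181 CPM.

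Whether the region difference itself depended on the sex label or the genotype was tested with interaction terms. For the sex label 1 of 17530 genes (0.0057%) passed an adjusted p of 0.05, Pdzrn3, a ubiquitin ligase (interaction log2 0.94, edgeR adjusted p = 0.0471), and 1345 had an unadjusted p under 0.05. Pdzrn3 was at 53.4 to 63.0 CPM in the DMH and 54.1 to 56.5 CPM in the SP of embryos labelled male, and at 73.2 to 81.7 and 32.0 to 41.0 CPM in those labelled female. It was not called with the embryo as a block (interaction log2 0.94, edgeR adjusted p = 0.120), where Nav2 passed instead, without the embryo female control 1 (1.00, edgeR adjusted p = 0.170) or with sex taken from the transcripts (0.54, edgeR adjusted p = 1). For the genotype 1 of 17442 (0.00573%) passed, Tfap2b itself, and 271 (1.55%) had an unadjusted p under 0.05. In 3 of the 6 DMH libraries of Tfap2b-/- embryos the Hox genes summed to 0.342, 2.27 and 19.9 CPM, against 449 to 563 CPM in the other 3. Without these embryos and female control 1, Tfap2b was again the gene that passed, and 1139 of 18051 (6.31%) had an unadjusted p under 0.05. On the scale of all 24 libraries Tfap2b was at 281 to 435 CPM in the DMH of Tfap2b+/+ embryos and at 50.4 to 56.6 CPM in that of Tfap2b-/- embryos, and at 3.48 to 4.19 and 2.75 to 4.72 CPM in the SP (interaction log2 -2.78, edgeR adjusted p = 7.08e-11). Counts on the gene thus remained in the DMH of Tfap2b-/- embryos. No other gene was shown to differ in its region difference between the genotypes, at 6 embryos each.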

How the data were processed

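The brains of 12 embryos were each divided into an SP and a DMH piece, and RNA was sequenced as strand-specific, polyA-selected paired reads of 100 bases. The submitters' notes name cutadapt 2.4, STAR 2.6.1d and the mouse build GRCm38.p6. The deposited files hold, per the file headers and values, STAR's read counts per gene for 54446 identifiers on 3 strand settings, which the authors did not normalise before deposit. The reverse-strand counts were used here because the library kit marks the second strand. Genes were named from GENCODE vM21, which matched 54409 identifiers. STAR's 4 summary lines were left out of the totals, with 5.46 to 6.66% unmapped and 4.96 to 5.80% multimapping reads in the control libraries. No pair of libraries of a group agreed within counting noise.

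Groups were taken from the labels. Genes were kept by edgeR's filterByExpr by region, scaled with TMM and tested with the quasi-likelihood test with robust dispersion (edgeR 4.0.16, R 4.3.3), with region and sex letter as terms and Benjamini-Hochberg adjustment. CPM were scaled by TMM over the 12 control libraries, and levels per kilobase were CPM divided by the union of exons. Counts of at most 3 per library were treated as the floor, and "at least" marks a fold computed against it. Intervals and floors cover counting error only. Alternatives were RLE scaling, other filters, unstranded counts, the likelihood ratio test, DESeq2 1.42.0, other covariates and thresholds, subsets of embryos and leaving out each library. On simulated counts with this design, 16484 genes passed the filter. Among the changed genes that passed it, 96 of 96 changes of log2 1.5 and 96 of 96 of log2 3 were recovered, with 2 false calls. The simulation held no difference between embryos or sex letters and changed few genes. It therefore does not give the rate of false calls in these data.

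The study design gives a DMH and an SP library per embryo, and the pairing was checked by correlating deviations from the group means. This gave r = 0.22 to 0.45 for all 6 pairs. Libraries of different embryos gave -0.44 to 0.37, which overlaps that range. For each DMH library the SP library of its own embryo gave the highest r. The main fit has no block, and the fit with the embryo as replicate block was an alternative. Genes are named by rule: the 10 largest folds in each direction among called genes with at least 10 CPM and no overlap, the 5 highest per kilobase, and members of the gene lists, which share some members. Some genes that the rule names are not reported here. The members and lists were chosen with earlier results of these data known. Start-site windows came from the RefSeq table (GRCm38.p6), which matched 11857 of the tested genes, and those of Emx1 and Tfap2b were chosen after their values were seen.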

Additional observations from a re-analysis of the deposited data

Results flagged for a closer look

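Among 97 groups of 6 values given or plotted in the report, 17 held a library whose gap to its nearest neighbour passed the 95% limit of Dixon's test for 6 values, where chance gives about 1 in 20. The groups share libraries and are not independent. The near absence of Hox counts in the DMH of female control 1 was known beforehand, so its Hox values are no test, and without the Hox genes there were 13 of 91 groups. The cause of no pattern was tested.

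The DMH of female control 1 was the library apart in 9 of them. It was lowest for Dbh (1.14 CPM against 3.23 to 3.35 in the other 5), Lbx1 (0.8003 CPM against 16.1 to 22.5), Pax2 (4.69 CPM against 36.2 to 47.6), Hoxa4 (0 CPM against 17.4 to 20.7), Hoxb3 (0 CPM against 59.1 to 72.7) and Hoxb5 (0.0381 CPM against 63.9 to 80.2), all genes of the hindbrain or the isthmus. It was highest for Otx2 (137 CPM against 64.5 to 90.4), Tcf7l2 (1004 CPM against 449 to 628) and Eomes (11.3 CPM against 5.91 to 7.82), genes of the midbrain, diencephalon and telencephalon. The SP of male control 1 was highest for Tcf7l2 (150.2 CPM against 14.8 to 54.6), Nkx2-4 (1.41 CPM against 0 to 0.0349), Nr5a1 (0.994 CPM against 0 to 0.103) and Pmch (1.49 CPM against 0.0518 to 0.141), of which the last 3 are hypothalamic genes. The SP of male control 3 was lowest for Shh (1.44 CPM against 3.78 to 4.58) and highest for Gabrd (1.06 CPM against 0.671 to 0.745). The DMH of male control 1 was highest for Hoxc8 (8.40 CPM against 0 to 1.83) and for the choroid plexus gene Ttr (609 CPM against 323 to 426).

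The interaction test called a region difference that depended on another factor for Pdzrn3 with the sex label (interaction log2 0.94, edgeR adjusted p = 0.0471) and for Tfap2b with the genotype (interaction log2 -2.78). The call of Pdzrn3 was lost with the embryo as a block (edgeR adjusted p = 0.120), without female control 1 and with sex taken from the transcripts.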

How the results depend on the processing

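The number of genes higher in the DMH ranged from 1571 to 1828 and the number higher in the SP from 827 to 896 with 1 library left out in turn. With no filter on low counts 2553 genes were higher in the DMH. At an adjusted p under 0.2 and a log2 fold change over 0.5 the counts were 3410 and 2408, and at the adjusted p of 0.05 alone 5638 and 5746. With the embryo as replicate block 2480 genes were called, 2461 of them among the 2468 called without it. Of the genes named in the report the block changed the call of Scn10a alone (log2 fold change 2.02, edgeR adjusted p = 0.0589). For the interaction of region and sex label, 10 genes were called with no filter, 12 with the likelihood ratio test, and 0 with sex from the transcripts or without female control 1, where 243 and 1268 genes had an unadjusted p under 0.05. For that interaction the setting without female control 1, and for all region counts the one without the 3 libraries whose markers stood apart, were chosen after seeing the data.

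Of 152 named genes called, 144 had a value in all 25 other fits, and 121 of these kept their call throughout. Of the 8 without a value in DESeq2 (5) or with unstranded counts (3), 5 kept it in every fit that gave one. In all 26 genes lost the call in at least 1 fit, 20 of them with embryos labelled male alone, 3 against 3. No named gene was called in the opposite direction. Leaving out 1 library ended the call of Col1a1, Gad1, Mapt, Rspo1, Tcf7l1, Vax1, mt-Rnr1 and Scn10a, of which all but Scn10a have log2 fold changes near 1 in size. Among embryos labelled female alone Slc6a5 lost its call (edgeR adjusted p = 0.146), where 1 of the 3 DMH libraries is female control 1. At 27.1 to 45.3 M counts a gene under about 0.1 CPM rests on 3 counts or fewer, which limits what is said of hormone, Hox and hindbrain genes in the SP.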

Other observations

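The listed metabotropic glutamate receptors Grm3, Grm4, Grm5, Grm7 and Grm8, which act through G proteins, were higher in the DMH. Grm3 was measured at 25.9 to 62.7 CPM (median 42.0) in the DMH and 5.43 to 17.6 CPM (median 7.24) in the SP (log2 fold change 2.33, edgeR adjusted p = 2.75e-06), and Grm8 at 11.6 to 17.1 CPM (median 13.9) and 2.15 to 5.44 CPM (median 2.72). In both the groups did not overlap. Grm2 had a log2 fold change of 0.61. The astrocytic glutamate transporter Slc1a2 stood at 302 to 376 CPM (median 333) against 121 to 200.2 CPM (median 134), and of all 14 tested genes of glutamate use 8 were higher in the DMH and 1 in the SP, against 9.84% and 5.01% of all genes.

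A few tissue markers sat in 1 piece. Pitx1, known from the pituitary, was at 0.818 to 2.29 CPM (median 1.02) in the DMH and at 0 in all SP libraries, so that it passed the filter through the DMH. Myh8, a myosin of fetal muscle, was at 3.10 to 4.38 CPM (median 3.27) against 0 to 0.203 CPM (median 0.093), but of 5 muscle genes tested the actin Acta1 and 2 others were not called. Ebf2, a factor used in olfactory and many other neurons, was 11.0-fold higher in the DMH, and the olfactory list had 3 of 5 tested higher in the DMH and 1, Lhx2, in the SP. Of 13 choroid plexus genes 4 were higher in the DMH (Slc4a5, Kl, Otx2 and Enpp2; 9.84% of all genes), of which Otx2 is also a midbrain factor, and of 3 cartilage genes none was called. The Y-linked genes, compared as a check, were not called in either direction.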
